A study of Mus musculus with 12 samples.

Results

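Collagens are triple-helical proteins of the extracellular matrix, each built from 3 α chains that fold together in the endoplasmic reticulum before secretion. Fibrillar collagens, above all types I and III, form the tensile fibres between heart muscle cells and are made mostly by fibroblasts. Type IV chains form the sheet-like network of the basement membranes around cardiomyocytes and capillaries, and types XV and XVIII are attached to those membranes. The remaining collagens bead, bridge, anchor or decorate these structures, as type VI microfibrils, fibril-associated chains and transmembrane chains do.

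The collagen chain genes were taken as every row of the deposited count table whose symbol begins with Col, a number, the letter a and a number. This pattern matched 45 of 23457 rows. Of these, 44 are collagen chains, namely 11 fibrillar, 8 basement membrane and 25 other chains. The row left over, Col4a3bp, encodes a ceramide transfer protein and was kept out of every count of chains.

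The libraries come from 6 Parkin KO hearts and 6 noninduced hearts of adult mice on a C57BL/6J background. Parkin KO mice carried a floxed allele and MerCreMer, a Cre recombinase that tamoxifen brings into the nucleus, and were induced as adults. Noninduced mice carried the floxed allele without Cre, and both groups have the same label of 9 to 10 weeks after tamoxifen. Polyadenylated RNA of the frozen ventricular apex was sequenced from single ends without strand, although the tissue label reads whole heart. Per the labels the Parkin KO group alone carried MerCreMer, so Parkin loss and MerCreMer itself cannot be told apart. The labels name neither the promoter that drives MerCreMer nor the floxed exon, and none states that the 6 libraries of a group came from separate animals, so p-values measure the spread between these libraries.

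Several libraries went against their labels or stood apart. Total counts ran from 13787150 to 16736228 in Parkin KO and from 11610507 to 16884516 in noninduced libraries. Park2, the gene that encodes Parkin, was covered by 24 to 45 reads in each Parkin KO library, against 24 to 45 in each noninduced library, so the gene count did not separate the groups. Reads on Esr1, the estrogen receptor gene from which part of MerCreMer derives, reached 1553 to 4683 CPM (read counts scaled to equal library totals) in Parkin KO libraries. They reached 558 CPM in noninduced library 1 and 962 CPM in noninduced library 3, while the remaining 4 noninduced libraries had 24.0 to 64.9 CPM. Reads on 4 Y-linked genes summed to 590, 495 and 634 in the Parkin KO libraries 2, 5 and 6 and to 178 in noninduced library 3, and to at most 7 in each of the other libraries. The X-linked female transcript Xist had 5.25, 5.03 and 0.704 CPM in the Parkin KO libraries 2, 5 and 6. It had 77.2 CPM in noninduced library 3 and 84.2 to 133 CPM in each of the other libraries. The cardiomyocyte markers summed to 85470 to 104636 CPM in Parkin KO and 64599 to 99151 CPM in noninduced libraries, with the lowest sum in noninduced library 6. Atrial markers summed to 150.5 to 1530 CPM in Parkin KO libraries, and to 116 to 5763 CPM in noninduced libraries. The noninduced libraries 2, 5 and 6 had 3202, 5763 and 4054 CPM of these, and the noninduced libraries 1, 3 and 4 had 149.5, 116 and 626 CPM. For the collagens themselves, Parkin KO library 2 was the lowest of the 12 libraries for 17 of the 30 chains with enough reads to test, and noninduced library 6 was the highest for 18 of 30.

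Promoter sequence is shown for 4 chains with a window that holds no annotated exon. Of these, Col27a1, Col15a1 and Col6a2 are 3 of the 4 chains lower in Parkin KO at an unadjusted p under 0.05, and no chain passed after adjustment. The windows of Col18a1, the remaining one, hold exon bases. Col3a1, a main chain of the fibrous matrix, was added without a difference at that level. Each is the 250 bases before a RefSeq gene start in GRCm38.p6, 5′ to 3′ on the gene's strand, with matches to TATAAA or GGGCGG on either strand in capitals. Their positions are chr1:45311288-45311537 on the plus strand for Col3a1, chr4:63215162-63215411 on the plus strand for Col27a1, chr4:47207762-47208011 on the plus strand for Col15a1 and chr10:76623631-76623880 on the minus strand for Col6a2.
Col3a1: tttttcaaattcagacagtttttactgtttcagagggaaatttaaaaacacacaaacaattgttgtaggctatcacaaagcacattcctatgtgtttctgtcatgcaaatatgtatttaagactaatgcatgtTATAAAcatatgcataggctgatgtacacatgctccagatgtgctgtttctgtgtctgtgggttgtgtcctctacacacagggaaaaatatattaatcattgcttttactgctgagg
Col27a1: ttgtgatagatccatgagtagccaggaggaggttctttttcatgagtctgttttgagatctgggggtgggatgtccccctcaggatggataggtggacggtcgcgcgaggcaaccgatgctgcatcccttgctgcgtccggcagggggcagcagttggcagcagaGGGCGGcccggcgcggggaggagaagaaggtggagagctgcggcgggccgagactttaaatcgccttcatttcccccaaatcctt
Col15a1: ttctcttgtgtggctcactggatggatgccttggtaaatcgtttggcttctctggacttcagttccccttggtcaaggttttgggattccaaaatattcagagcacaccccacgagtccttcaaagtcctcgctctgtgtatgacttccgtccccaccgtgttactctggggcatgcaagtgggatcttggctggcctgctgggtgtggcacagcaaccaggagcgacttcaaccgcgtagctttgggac
Col6a2: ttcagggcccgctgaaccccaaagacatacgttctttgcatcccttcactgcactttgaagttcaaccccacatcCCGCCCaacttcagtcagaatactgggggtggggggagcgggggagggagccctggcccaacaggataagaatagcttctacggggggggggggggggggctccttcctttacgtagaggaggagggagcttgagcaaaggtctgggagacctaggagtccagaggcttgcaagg

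Col3a1 has a TATAAA match, at base -117 before the start, in a window of 35.2% G and C. Col27a1 has GGGCGG at base -85 and Col6a2 has it on the opposite strand at base -175, in windows of 59.6% and 59.2% G and C. The Col15a1 window, with 53.6% G and C, holds neither of these nor CCAAT. RefSeq windows were at hand for 35 of the 44 chain genes, 38 windows in all. GGGCGG occurred in 57.9% of these windows and in 32.7% of the 32851 promoter windows of all genes. TATAAA occurred in 13.2% of the collagen windows and 12.4% of all windows, and CCAAT in 34.2% and 33.9%. These matches describe letters and not binding sites.

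The type IV basement membrane chains Col4a2 and Col4a1 were the most abundant collagens per length in these hearts. On the deposited FPKM scale, which divides by transcript length, Col4a2 averaged 96.1 ± 13.8 FPKM in Parkin KO and 98.8 ± 32.2 FPKM in noninduced hearts (SD, n = 6 each). Col4a1, its partner in the commonest type IV trimer, averaged 84.4 ± 15.2 FPKM in Parkin KO and 90.5 ± 29.97 FPKM in noninduced hearts. These 2 levels lay within each other's spread. The next 6 chains overlapped one another in spread, from Col1a1 at 41.8 ± 10.8 FPKM in Parkin KO and 58.1 ± 25.5 FPKM in noninduced hearts, through Col6a2, Col6a1, Col15a1 and Col3a1, to Col1a2 at 31.4 ± 8.22 FPKM in Parkin KO and 36.3 ± 17.0 FPKM in noninduced hearts. A gap followed, since Col5a1, which starts and limits fibril growth, averaged 11.2 ± 1.995 FPKM in Parkin KO and 13.0 ± 3.998 FPKM in noninduced hearts.

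**Figure D1:**
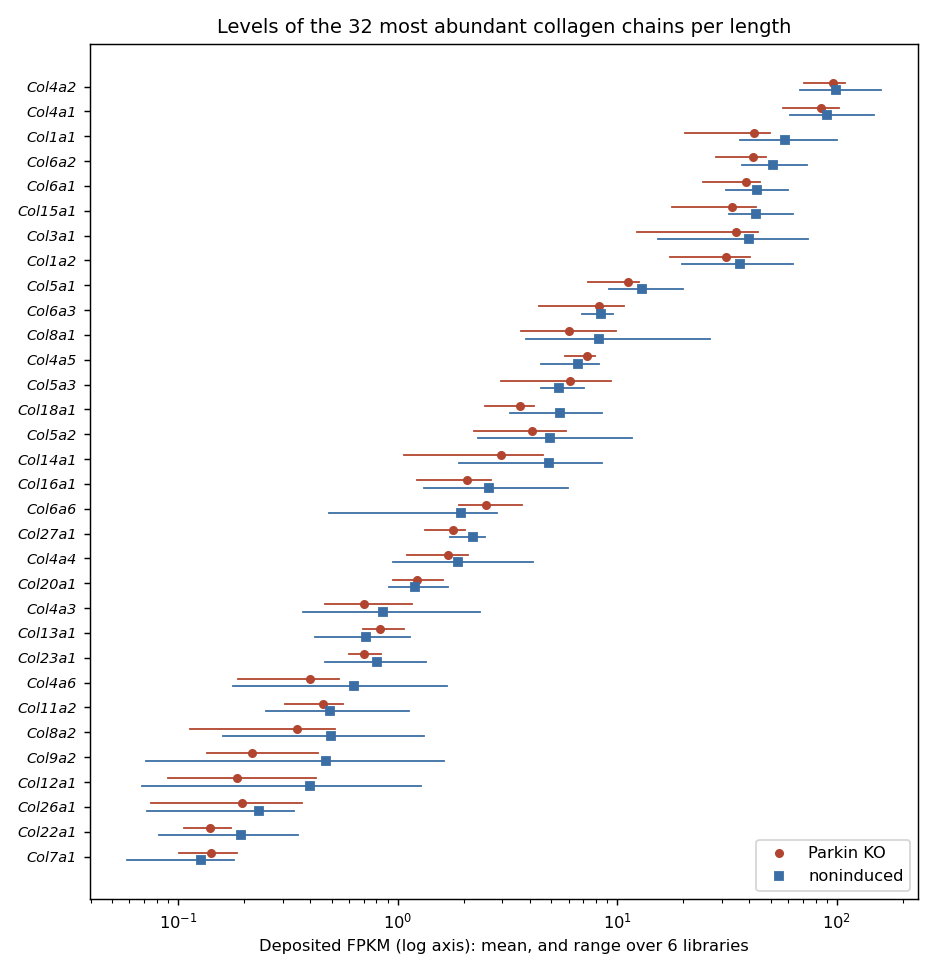
Deposited FPKM on a log axis for the 32 most abundant chains, from the most to the least abundant. Circles (Parkin KO) and squares (noninduced) are group means, and lines span the lowest to the highest of 6 libraries. The pair Col4a2 and Col4a1 leads in both groups, and the lines of the groups overlap for every chain drawn.

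Fibrillar chains made up 27.0 ± 3.02% of all collagen counts in Parkin KO and 28.5 ± 4.64% in noninduced hearts. Basement membrane chains made up 55.0 ± 3.002% in Parkin KO and 52.8 ± 4.74% in noninduced hearts, and other chains 17.99 ± 0.498% in Parkin KO and 18.7 ± 1.11% in noninduced hearts. The division of collagen reads among the classes thus overlapped between groups. All chains together took 0.167% to 0.303% of a Parkin KO library's counts and 0.214% to 0.490% of a noninduced library's counts. The lowest of these shares was in Parkin KO library 2 and the highest in noninduced library 6.

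The group comparison asked whether collagen transcripts differed after Parkin deletion in the adult heart. It was fitted with edgeR over the 13050 genes with enough reads, among them 30 chains (8 fibrillar, 8 basement membrane and 14 other). None of the 30 chains passed an adjusted p of 0.05, and none of the 13050 genes did (0%). DESeq2 called 10 genes (0.0766%) and none of the chains. At an unadjusted p under 0.05 in edgeR, 4 chains were lower in Parkin KO (Col18a1, Col27a1, Col6a2 and Col15a1) and 0 were higher, where 5.54% of all genes tested were lower and 5.82% higher. The fitted log2 fold change was below 0 for 24 of the 30 chains and for 48% of all genes. The CPM ranges of the groups overlapped for all 30 chains, and 0.345% of all genes had groups that did not overlap. In bulk tissue, fewer matrix-producing cells and less collagen RNA per cell cannot be told apart.

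The lean toward lower values rested on noninduced library 6. Without it, 16 chains were lower and 14 higher, where 48.7% of all genes were lower, and 2 chains were lower at an unadjusted p under 0.05, against 8.2% of all genes. Without Parkin KO library 2, 24 of 31 chains were lower, where 50% of all genes were lower, 2 of the chains at an unadjusted p under 0.05, against 6.2% of all genes. Without Parkin KO library 2 and noninduced library 6 together, 13 chains were lower and 17 higher, where 47.4% of all genes were lower, with 2 lower and 1 higher at an unadjusted p under 0.05 and 8.34% of all genes lower at that level. Without the noninduced libraries 1 and 3, whose Esr1 reads went against their label, 30 of 33 chains were lower, where 51.3% of all genes were lower. Of the chains, 14 were lower at an unadjusted p under 0.05, against 4.83% of all genes, and no chain passed after adjustment. These 2 libraries had the lowest collagen values of their group, with median deviations from the chain means of -0.21 and -0.34 log2 units. The noninduced libraries 2, 5 and 6, with the most atrial reads, were kept in that set. Among the libraries with at most 7 Y-linked reads, 25 of 33 chains were lower, where 50.4% of all genes were lower, 2 of the chains at an unadjusted p under 0.05, against 2.57% of all genes. Without the noninduced libraries 2 and 5, which held many atrial reads, 23 of 31 chains were lower, where 48% of all genes were lower. At an unadjusted p under 0.05, 4 of the chains were lower, against 3.55% of all genes. Noninduced library 6, with 4054 CPM of atrial markers, was kept in this set. No set without the noninduced libraries 2, 5 and 6 together was fitted. The count of chains lower at an unadjusted p under 0.05 was 8 without noninduced library 3, 6 without Parkin KO library 1 or noninduced library 1 or 2, and 2 without Parkin KO library 4 or 6, in place of 4.

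**Figure D2:**
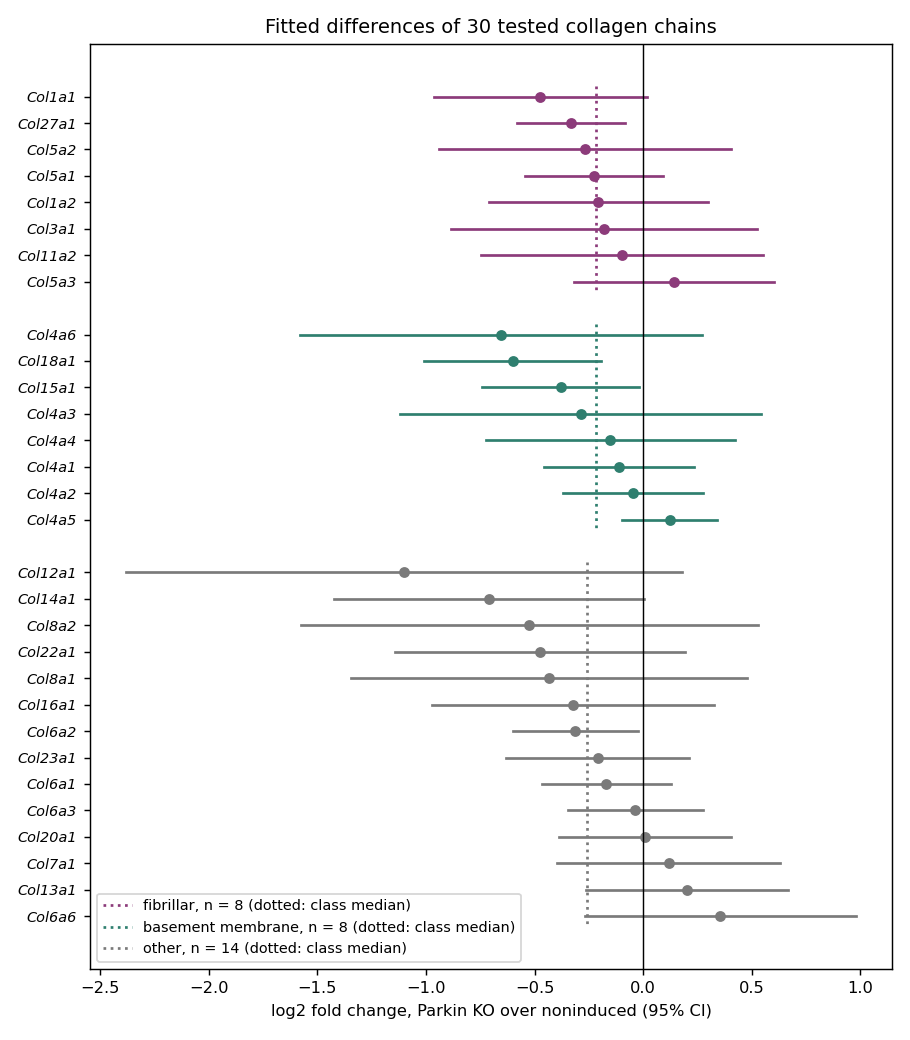
Fitted log2 fold change of Parkin KO over noninduced hearts for the 30 tested chains, with 95% confidence intervals, by class. Dotted lines mark class medians. Points lie left of 0 for 24 chains, and only the intervals of Col27a1, Col18a1, Col15a1 and Col6a2 lie wholly below 0 before adjustment.

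Among the fibrillar chains, 7 of 8 tested had lower fitted values in Parkin KO and none passed after adjustment. Their median log2 fold change was -0.22, where the median of all genes was 0.01. Without noninduced library 6 the fibrillar median was -0.06.

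Col1a1, the chain present as 2 copies in each type I molecule (chromosome 11, 94936224 to 94953042), had 99.2, 212 and 230 CPM as the lowest, median and highest Parkin KO values, against 178, 237 and 436 CPM in noninduced hearts. Parkin KO library 2 stood below all others, and the noninduced libraries 4, 5 and 6 stood above all Parkin KO libraries. The log2 fold change of Col1a1 was -0.47 ± 0.229 (SE), with an edgeR adjusted p of 0.439, and it was -0.29 without noninduced library 6. Col1a2, its partner chain, had 93.8, 164 and 202 CPM in Parkin KO hearts, against 115, 167 and 304 CPM in noninduced hearts. The log2 fold change of Col1a2 was -0.21 ± 0.236 (adjusted p = 0.713). It was -0.015 without noninduced library 6 and -0.10 without Parkin KO library 2.

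Col3a1, the single chain of type III collagen (chromosome 1, 45311538 to 45349706), had 72.0, 214 and 238 CPM in Parkin KO hearts, against 96.4, 204 and 383 CPM in noninduced hearts. Within the noninduced group Col3a1 split into 3 low libraries (1, 2 and 3, at 96.4, 139 and 132 CPM) and 3 high ones (4, 5 and 6, at 268, 287 and 383 CPM), while 5 of 6 Parkin KO libraries lay between 178 and 238 CPM. The log2 fold change was -0.18 ± 0.331 with an adjusted p of 0.833, and it was 0.05 without noninduced library 6 and -0.02 without Parkin KO library 2. Counts of Col3a1 per count of Col1a1 were 0.968 ± 0.148 in Parkin KO and 0.779 ± 0.196 in noninduced hearts, with overlapping ranges of 0.726 to 1.125 in Parkin KO and 0.502 to 1.06 in noninduced hearts. Counts of Col1a2 per count of Col1a1 were 0.836 ± 0.112 in Parkin KO (0.697 to 0.953) and 0.679 ± 0.0502 in noninduced hearts (0.597 to 0.744). These ratios compare a pair of genes within a library and so do not depend on the scaling of libraries, and they were not tested.

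The type V chains, which are built into type I fibrils and set their diameter, had fitted values in both directions. Col5a1 had 65.5, 99.7 and 105 CPM in Parkin KO hearts, against 88.4, 106 and 158 CPM in noninduced hearts, with a log2 fold change of -0.23 ± 0.148 (adjusted p = 0.533), which was -0.11 without noninduced library 6 and -0.15 without Parkin KO library 2. Col5a2 had 15.6, 26.8 and 38.7 CPM in Parkin KO hearts, against 17.6, 23.4 and 72.4 CPM in noninduced hearts. The Parkin KO median of Col5a2 was the higher one although its fitted log2 fold change was -0.27 ± 0.314 (adjusted p = 0.723), and the estimate was 0.14 without noninduced library 6 and -0.16 without Parkin KO library 2. Col5a3, a type V chain of more restricted expression, had 18.9, 37.2 and 56.7 CPM in Parkin KO hearts, against 25.6, 31.5 and 42.2 CPM in noninduced hearts (log2 fold change 0.14 ± 0.215, adjusted p = 0.797), and its estimate was 0.27 without Parkin KO library 2.

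Col27a1, a fibrillar collagen known mainly from cartilage (chromosome 4, 63214004 to 63334991), had the smallest standard error of the chains that were lower at an unadjusted p under 0.05. It had 10.8, 14.2 and 15.6 CPM in Parkin KO hearts, against 13.7, 18.2 and 19.9 CPM in noninduced hearts. The noninduced libraries 1, 2, 4 and 5 lay above every Parkin KO library. The log2 fold change was -0.33 ± 0.116, with an unadjusted p of 0.0121 and an adjusted p of 0.417. It ranged from -0.39 to -0.28 when each library was left out in turn. The fibrillar chains Col2a1, Col11a1 and Col24a1, the first of them the cartilage collagen, had at most 6 reads in any library and were not tested.

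**Figure D3:**
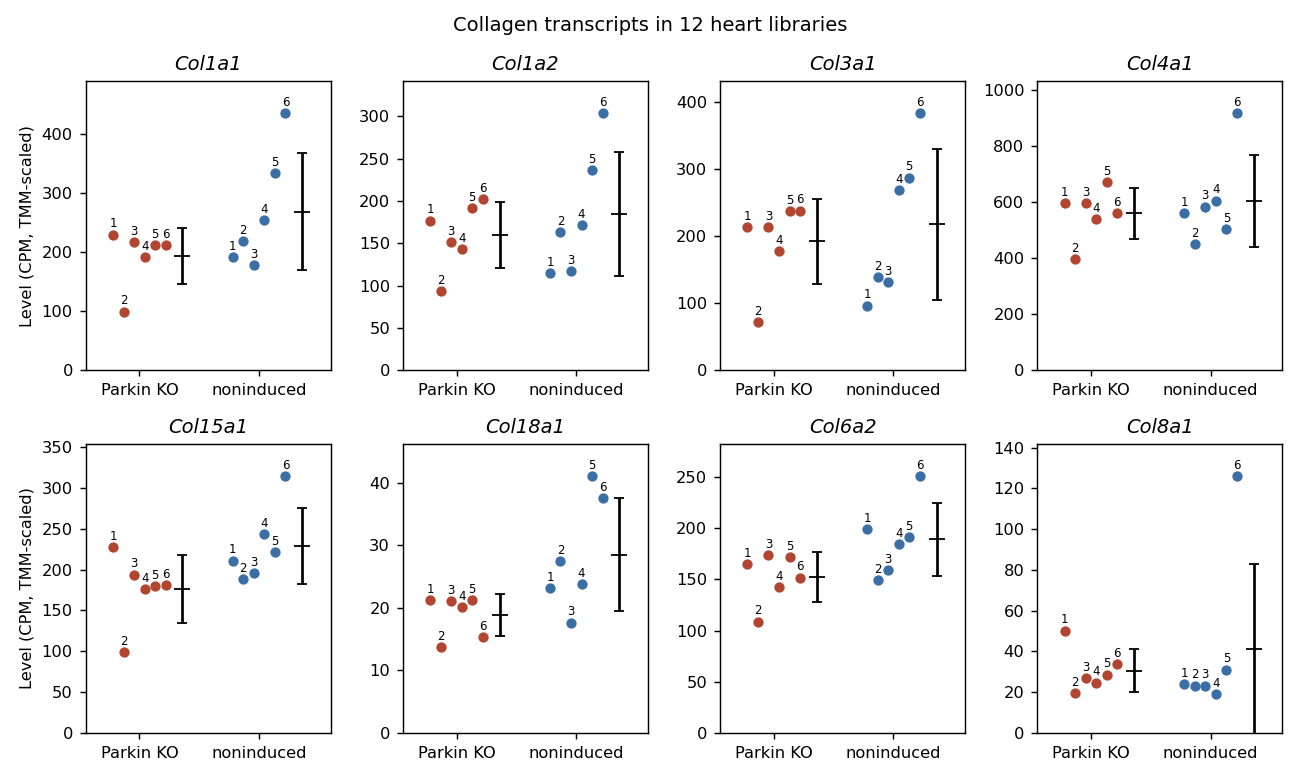
CPM of 8 chains in each library, with Parkin KO left and noninduced right in every panel. Digits are library numbers, and black marks give the mean and SD of 6 libraries (the bar of Col8a1 in noninduced hearts is cut at 0). Parkin KO library 2 is the lowest point of every panel but that of Col8a1, and noninduced library 6 is the highest of every panel but that of Col18a1.

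All 8 basement membrane chains were tested, 7 had lower fitted values in Parkin KO, and none passed after adjustment. The class median was -0.22 on the log2 scale, and it was 0.07 without noninduced library 6. The 6 type IV chains alone had a median of -0.13.

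Col4a1 (chromosome 8, 11198423 to 11312826, minus strand) and Col4a2 (chromosome 8, 11312805 to 11449287, plus strand) lie head to head, with start sites 21 bases apart. Col4a1 had 396, 578 and 671 CPM in Parkin KO hearts, against 451, 572 and 917 CPM in noninduced hearts. Its log2 fold change was -0.11 ± 0.161 (adjusted p = 0.785), with a 95% confidence interval of -0.45 to 0.23. Col4a2 had 480, 644 and 701 CPM in Parkin KO hearts, against 484, 603 and 957 CPM in noninduced hearts, with a log2 fold change of -0.05 ± 0.151 (adjusted p = 0.911) and an interval of -0.37 to 0.28. For this most abundant pair, changes of 1 log2 unit in either direction lay outside the interval. Both estimates were above 0 without noninduced library 6, at 0.04 for Col4a1 and 0.10 for Col4a2. They were -0.04 for Col4a1 and 0.01 for Col4a2 without Parkin KO library 2.

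Col4a3 and Col4a4, chains of the kidney-type network, are a second head-to-head pair on chromosome 1. Col4a3 had 3.97, 5.29 and 10.1 CPM in Parkin KO hearts, against 3.13, 5.14 and 19.3 CPM in noninduced hearts (log2 fold change -0.29 ± 0.390, adjusted p = 0.764). Col4a4 had 9.12, 13.6 and 16.4 CPM in Parkin KO hearts, against 8.34, 11.8 and 30.5 CPM in noninduced hearts (log2 fold change -0.15 ± 0.269, adjusted p = 0.828). For both genes the Parkin KO median was the higher one, and the highest value of all 12 was in noninduced library 6. Without that library the log2 fold changes were 0.29 for Col4a3 and 0.20 for Col4a4, and that of Col4a4 was -0.07 without Parkin KO library 2. Col4a5, the X-linked partner of these chains, had 39.8, 48.1 and 51.4 CPM in Parkin KO hearts, against 33.3, 44.0 and 50.03 CPM in noninduced hearts (log2 fold change 0.12 ± 0.102, adjusted p = 0.619).

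Col15a1 (chromosome 4, 47208161 to 47313167) encodes a basement membrane proteoglycan of muscle and capillaries. It had 99.4, 180 and 228 CPM in Parkin KO hearts, against 189, 216 and 315 CPM in noninduced hearts. Parkin KO libraries 2, 4, 5 and 6 lay below all noninduced libraries. The log2 fold change was -0.38 ± 0.169, with an unadjusted p of 0.0407 and an adjusted p of 0.432.

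Col18a1 (chromosome 10, 77052178 to 77166548) encodes the chain whose end fragment is endostatin, an inhibitor of vessel growth. Its values were 13.7, 20.6 and 21.3 CPM in Parkin KO hearts, against 17.6, 25.7 and 41.1 CPM in noninduced hearts, and noninduced library 3 was the one noninduced library within the Parkin KO range. It had the smallest p of the 30 tested chains, with a log2 fold change of -0.60 ± 0.190, an unadjusted p of 0.00661 and an adjusted p of 0.417. The estimate ranged from -0.71 to -0.48 when each library was left out in turn.

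The 14 tested chains of the other types had a median log2 fold change of -0.26, which was -0.03 without noninduced library 6. Fitted values were lower in Parkin KO for 10 and higher for 4, and none passed after adjustment. Type VI collagen forms beaded microfibrils that link the basement membrane to the surrounding matrix. Its main chains are Col6a1 and Col6a2, neighbours on chromosome 10, and Col6a3.

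Col6a1 had 101, 160 and 171 CPM in Parkin KO hearts, against 135, 166 and 219 CPM in noninduced hearts (log2 fold change -0.17 ± 0.139, adjusted p = 0.612), and its estimate was -0.09 without noninduced library 6 and likewise without Parkin KO library 2. Col6a2 had 109, 158 and 173 CPM in Parkin KO hearts, against 149, 188 and 251 CPM in noninduced hearts (log2 fold change -0.31 ± 0.135, unadjusted p = 0.0352, adjusted p = 0.424). The Col6a2 groups overlapped between 149 and 173 CPM. Col6a3 had 40.6, 74.4 and 93.8 CPM in Parkin KO hearts, against 65.3, 74.5 and 80.1 CPM in noninduced hearts (log2 fold change -0.04 ± 0.145, adjusted p = 0.926), and its estimate was 0.08 without Parkin KO library 2. Col6a6, a chain that can replace Col6a3 in the trimer, had 13.5, 17.4 and 25.5 CPM in Parkin KO hearts, against 3.23, 15.1 and 19.7 CPM in noninduced hearts (log2 fold change 0.36 ± 0.292, adjusted p = 0.614). Its lowest value belonged to noninduced library 6, in which 18 of 30 chains were highest, and the estimate was 0.13 without that library.

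Col8a1, a short-chain collagen of vessel walls, had 19.4, 27.8 and 50.2 CPM in Parkin KO hearts, against 19.0, 23.5 and 126 CPM in noninduced hearts. Noninduced library 6 alone stood above 50.2 CPM, and the log2 fold change of -0.43 ± 0.427 (adjusted p = 0.672) was 0.34 without it. Among the 5 tested fibril-associated chains, which coat the surface of fibrils, the median log2 fold change was -0.48. One of them, Col14a1, had 7.30, 19.7 and 29.8 CPM in Parkin KO hearts, against 13.9, 25.7 and 51.7 CPM in noninduced hearts, with the noninduced libraries 5 and 6 above all Parkin KO libraries. Its log2 fold change was -0.71 ± 0.335, with an unadjusted p of 0.0514 and an adjusted p of 0.438.

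The remaining chains with higher fitted values were low in abundance. Col13a1, a transmembrane collagen, ran from 1.94 to 2.996 CPM in Parkin KO and from 1.10 to 3.07 CPM in noninduced hearts (log2 fold change 0.20 ± 0.218, adjusted p = 0.698), and its estimate was 0.06 without noninduced library 6. Col7a1, the anchoring fibril collagen of skin, ran from 0.935 to 1.64 CPM in Parkin KO and from 0.621 to 1.63 CPM in noninduced hearts (log2 fold change 0.12 ± 0.241, adjusted p = 0.852), and its estimate was 0.18 without noninduced library 6. The other 8 tested chains (Col11a2, Col4a6, Col8a2, Col12a1, Col16a1, Col20a1, Col22a1 and Col23a1) had log2 fold changes from -1.10 for Col12a1 to 0.01 for Col20a1. Their adjusted p-values ran from 0.462 to 0.991.

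Of the 44 chains, 14 had too few reads to be tested. Besides Col2a1, Col11a1 and Col24a1 these were Col10a1, Col17a1, Col19a1, Col25a1, Col26a1, Col28a1, Col6a4, Col6a5, Col9a1, Col9a2 and Col9a3. Col6a4 had 1 read over the 12 libraries together. Col9a2, a cartilage collagen chain, was covered by 5 to 17 reads per Parkin KO library, against 3 to 17 in 5 noninduced libraries and 73 in noninduced library 6. Col6a5, a type VI chain, had 1, 6, 3, 2, 15 and 8 reads in the Parkin KO libraries 1 to 6, against 0 to 2 reads in each noninduced library. When the low-count filter was left off, these 14 chains entered the edgeR fit, Col6a5 had an unadjusted p of 0.00718 and an adjusted p of 0.490, and none of the 14 passed after adjustment. The Col6a5 reads were most numerous in the Parkin KO libraries 2, 5 and 6, which hold the Y-linked reads, and the part of sex in them was not tested.

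**Figure D4:**
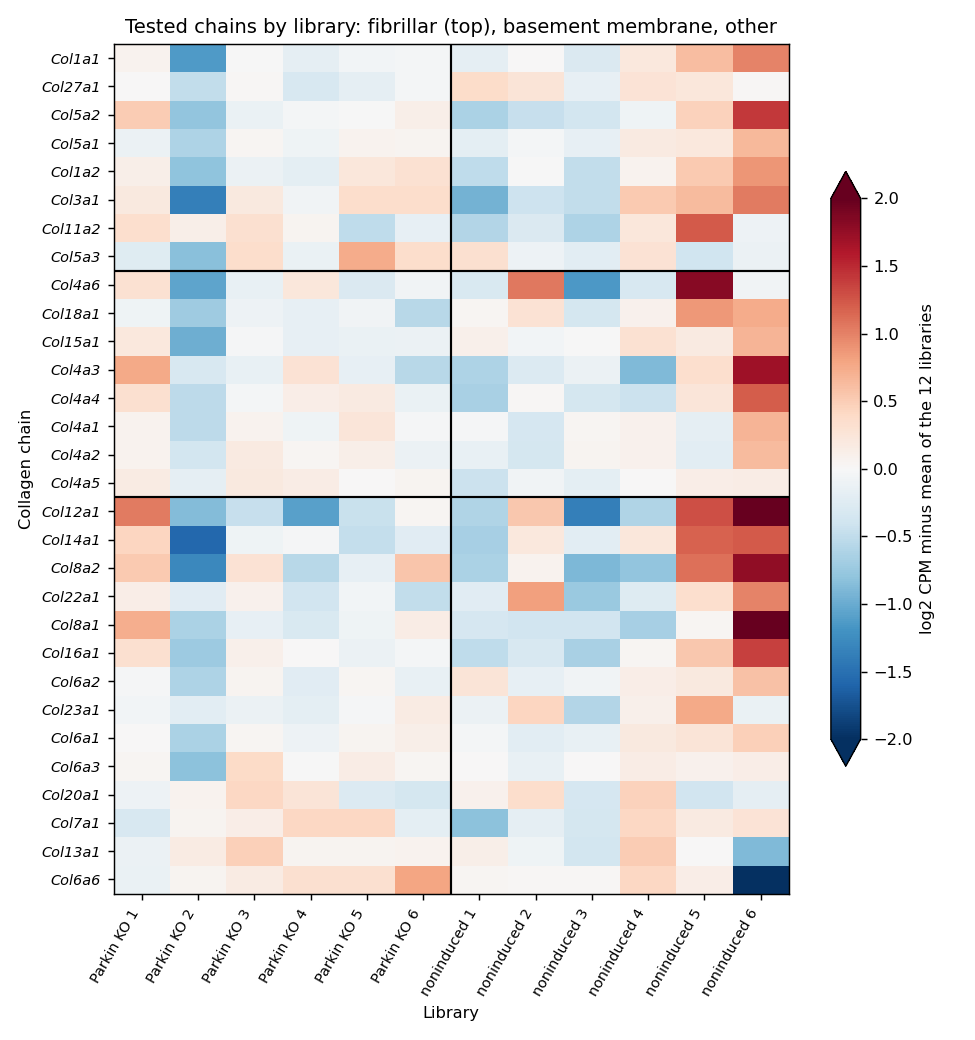
Log2 CPM of the 30 tested chains in each of 12 libraries, minus each chain's mean over the libraries, with fibrillar chains on top, basement membrane chains in the middle and other chains at the bottom. The columns of Parkin KO 2 (blue, low) and noninduced 6 (red, high) stand out across classes, with Col6a6 and Col13a1 low in noninduced 6.

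The same libraries stood at the extremes in each class. Parkin KO library 2 was the lowest of 12 for 7 of 8 fibrillar, 4 of 8 basement membrane and 6 of 14 other chains. Noninduced library 6 was the highest for 5 of 8 fibrillar, 5 of 8 basement membrane and 8 of 14 other chains, and the lowest for Col6a6 and Col13a1. Noninduced library 5 was the highest for Col4a6, Col18a1, Col11a2 and Col23a1.

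Markers of other cells were summed in each library to set beside these values. Fibroblast markers other than collagens summed to 2181 to 3925 CPM in Parkin KO and 2165 to 3547 CPM in noninduced libraries, so the groups overlapped. Of these markers, 8 of 12 had lower fitted values, where 48% of all genes did. Markers of activated fibroblasts summed to 240.5 to 445 CPM in Parkin KO and 254.5 to 873 CPM in noninduced libraries. The lowest of these sums was in Parkin KO library 2 and the highest in noninduced library 6. All 7 tested markers had lower fitted values in Parkin KO (48% of all genes did), with a median log2 fold change of -0.83. Endothelial markers summed to 1429 to 1701 CPM in Parkin KO and 1413 to 1683 CPM in noninduced libraries, and 5 of 10 had lower fitted values (48% of all genes did). Valve and cartilage-like markers summed to 18.1 to 32.4 CPM in Parkin KO and 23.2 to 97.7 CPM in noninduced libraries, with the highest sums in the noninduced libraries 5, 6 and 2. All 3 tested ones had lower fitted values, with a median log2 fold change of -1.02. In edgeR, 2 of them were lower at an unadjusted p under 0.05, where 5.54% of all genes were. All 9 cardiomyocyte markers had higher and all 5 atrial markers lower fitted values in Parkin KO, where 48% of all genes were lower. The median log2 fold change was 0.13 for the cardiomyocyte markers and -4.32 for the atrial markers. In edgeR, all 5 atrial markers were lower at an unadjusted p under 0.05, where 5.54% of all genes were. At that level 2 cardiomyocyte markers were higher, where 5.82% of all genes were. None of the markers passed after adjustment. The part of tissue composition in the collagen values was not tested.

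The trimer partners Col4a1 with Col4a2 and Col1a1 with Col1a2 varied together across the 12 libraries. Pearson's r of log2 CPM was 0.950 for Col4a1 and Col4a2, with Spearman's rho of 0.930 (permutation p = 3e-05 and 8e-05, adjusted over 9 pairs 0.00018 and 0.00072). It was 0.908 for Col1a1 and Col1a2, with rho of 0.818 (permutation p = 4e-05 and 0.00183, adjusted 0.00018 and 0.00412). The Col4a1 pair kept r = 0.865 and the Col1a1 pair kept r = 0.788 when Parkin KO library 2 and noninduced library 6 were left out, with permutation p of 0.00091 and 0.00427. Within groups, r for Col4a1 and Col4a2 was 0.899 in Parkin KO and 0.990 in noninduced hearts, with exact permutation p of 0.0278 and 0.00139. For Col1a1 and Col1a2 it was 0.904 in Parkin KO and 0.985 in noninduced hearts (exact permutation p = 0.0417 and 0.00278). All these values share each library's RNA and its depth.

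The other pairs of chains, some of which also share a trimer, likewise had lower r without the libraries at the extremes. The r of Col1a1 and Col3a1 was 0.874, with rho of 0.853 (permutation p = 0.00015 and 0.00087, adjusted 0.00045 and 0.00261), and r was 0.694 without them (permutation p = 0.0243). The r of Col4a3 and Col4a4 was 0.905, with rho of 0.846 (permutation p = 0.0002 and 0.00083, adjusted 0.00045 and 0.00261), and r was 0.717 without noninduced library 6 and Parkin KO library 1 (permutation p = 0.0207). For Col5a1 and Col5a2, r was 0.843 and rho 0.699 (permutation p = 0.00103 and 0.0147, adjusted 0.00154 and 0.0189), and r was 0.495 without Parkin KO library 2 and noninduced library 6 (permutation p = 0.148). For Col6a1 and Col6a2, r was 0.890 and rho 0.741 (permutation p = 0.00048 and 0.00824, adjusted 0.000864 and 0.0124), and r was 0.565 without them (permutation p = 0.0907). For Col6a1 and Col6a3, r was 0.792 and rho 0.811 (permutation p = 0.00718 and 0.00231, adjusted 0.00923 and 0.00416), and r was 0.524 without them (permutation p = 0.117). The relations of Col5a1 with Col5a2 and of Col6a1 with Col6a2 were thus weaker without that pair of libraries, with permutation p above 0.05. That of Col6a1 with Col6a3 across libraries was weaker without Parkin KO library 2 (r = 0.463) and not without noninduced library 6 (r = 0.864). Within the noninduced hearts alone, r of Col6a1 and Col6a3 was 0.835 (exact permutation p = 0.0319).

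Across classes, r of Col1a1 and Col4a1 was 0.715 and rho 0.399 (permutation p = 0.0178 and 0.201, adjusted 0.0178 and 0.201). It was -0.23 without Parkin KO library 2 and noninduced library 6 (permutation p = 0.497), so this relation rests on them. For Col3a1 and Col4a1, r was 0.716 and rho 0.532 (permutation p = 0.00853 and 0.0796, adjusted 0.0096 and 0.0895), and r was 0.657 without Parkin KO library 2 and noninduced library 1 (permutation p = 0.0386). It was 0.270 without Parkin KO library 2 and noninduced library 6, and without Parkin KO library 2 alone 0.568, so this relation rests on Parkin KO library 2 and noninduced library 6 as well.

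Within groups, these other 7 pairs had r from 0.709 to 0.981 in Parkin KO and from 0.573 to 0.967 in noninduced hearts. In Parkin KO, r was 0.928 for Col1a1 with Col4a1 and 0.944 for Col3a1 with Col4a1, pairs that share no trimer. It was 0.899 there for Col4a1 with Col4a2, so high r within Parkin KO was not particular to trimer partners. In noninduced hearts these 3 values were 0.607, 0.573 and 0.990. Parkin KO library 2 and noninduced library 6 were kept in the values within groups.

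**Figure D5:**
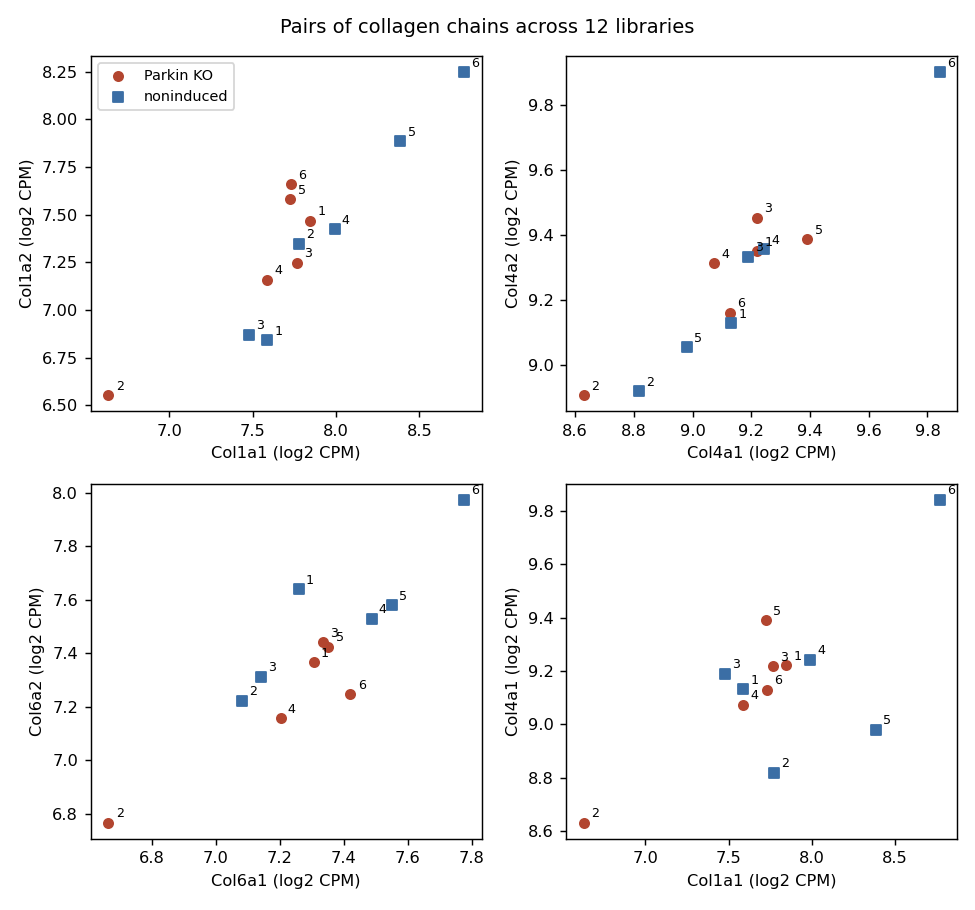
Log2 CPM of chain pairs across 12 libraries, with Parkin KO as circles and noninduced as squares, and library numbers beside the points. Col4a1 and Col4a2 follow a line at all levels (r = 0.950), while for Col1a1 and Col4a1 the Parkin KO library 2 and the noninduced library 6 set the slope.

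Genes that act on collagens were taken from 6 lists by role. In none of them did a gene pass after adjustment. Of the 19 tested genes of collagen folding and modification in the endoplasmic reticulum, 14 had lower fitted values (48% of all genes did). The median log2 fold change was -0.04, and 1 gene was lower at an unadjusted p under 0.05 (5.54% of all genes were). That gene was Plod2, a lysyl hydroxylase, with 9.68 ± 1.68 CPM in Parkin KO hearts, against 11.8 ± 1.599 CPM in noninduced ones, and a log2 fold change of -0.28 ± 0.128 (adjusted p = 0.432). Next was Glt25d1, which adds galactose to collagen, at -0.11 ± 0.0766 (adjusted p = 0.543).

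Among 20 genes of collagen processing, fibril assembly and crosslinking, 15 had lower fitted values (48% of all genes did), 7 of them at an unadjusted p under 0.05 (5.54% of all genes), and the median was -0.33. Sparc, a matrix protein that binds collagen, averaged 421 ± 70.9 CPM in Parkin KO hearts, against 582 ± 134 CPM in noninduced ones (log2 fold change -0.47 ± 0.147, unadjusted p = 0.0062, adjusted p = 0.417). Fn1, fibronectin, averaged 98.2 ± 12.4 CPM in Parkin KO hearts, against 131 ± 32.4 CPM in noninduced ones (log2 fold change -0.42 ± 0.143, unadjusted p = 0.0110, adjusted p = 0.417). Without Parkin KO library 2 and noninduced library 6, the count at an unadjusted p under 0.05 was 1 lower and 1 higher, where 8.34% of all genes were lower, and the median was -0.16.

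Of 15 tested genes of collagen degradation and its inhibitors, 13 had lower fitted values (48% of all genes did) and the median was -0.19. Timp4, an inhibitor of matrix metalloproteinases, was the single one past an unadjusted p of 0.05 and was higher, where 5.82% of all genes were. It had 28.0 ± 9.52 CPM in Parkin KO hearts, against 17.1 ± 4.45 CPM in noninduced ones (log2 fold change 0.71 ± 0.215, unadjusted p = 0.00478, adjusted p = 0.417). Mrc2, a receptor that takes up collagen fragments, was next at -0.25 ± 0.140 (adjusted p = 0.480). For the 7 tested collagen receptors, 6 had lower fitted values (48% of all genes did), 0 of them at an unadjusted p under 0.05, and the median was -0.15. The list was led by Ddr2, a collagen-binding tyrosine kinase, at -0.24 ± 0.112 and the integrin chain Itgb1 at -0.15 ± 0.0922 (adjusted p = 0.438 and 0.518).

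The other basement membrane components, laminins, nidogens and proteoglycans, were evenly divided, with 7 of 14 lower (48% of all genes were), 7 higher and a median of 0.01. Lamb2, a laminin chain, was the single one past an unadjusted p of 0.05 and was higher, where 5.82% of all genes were. It averaged 837 ± 113 CPM in Parkin KO hearts, against 693 ± 113 CPM in noninduced ones (log2 fold change 0.27 ± 0.122, unadjusted p = 0.0406, adjusted p = 0.432). The laminin chain Lamc3 was at -0.81 ± 0.460 (adjusted p = 0.480). The median of these genes stood beside -0.22 for the basement membrane collagens, a difference that was not tested.

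Of 19 tested ligands, receptors and targets of TGF-beta, a growth factor that induces collagen transcription in fibroblasts, 17 had lower fitted values (48% of all genes did), 8 of them at an unadjusted p under 0.05 (5.54% of all genes), and the median was -0.23. Thbs1, which activates latent TGF-beta, averaged 8.46 ± 5.16 CPM in Parkin KO hearts, against 20.8 ± 8.60 CPM in noninduced ones (log2 fold change -1.30 ± 0.346, unadjusted p = 0.00201, adjusted p = 0.417). Ctgf, a target of TGF-beta, averaged 116 ± 39.7 CPM in Parkin KO hearts, against 219 ± 82.1 CPM in noninduced ones (log2 fold change -0.92 ± 0.270, unadjusted p = 0.00394, adjusted p = 0.417). Without Parkin KO library 2 and noninduced library 6, 15 of 19 were lower (47.4% of all genes), 5 of them at an unadjusted p under 0.05 (8.34% of all genes). Immediate-early genes, which respond within minutes to stress or handling, summed to 93.5 to 175 CPM in Parkin KO and 134 to 290 CPM in noninduced libraries. All 7 had lower fitted values (48% of all genes did), with a median log2 fold change of -1.53. In edgeR, 6 of them were lower at an unadjusted p under 0.05 (5.54% of all genes were), and none passed after adjustment. The part of immediate-early genes in the TGF-beta and collagen values was not tested.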

How the data were processed

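The deposited tables hold whole read counts per gene and FPKM values. The submitters' processing notes list TopHat2 2.0.10, Bowtie2, HTSeq and Cufflinks 2.1 with mouse build mm10. They name no annotation or counting settings. Groups and library numbers come from the labels.

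Counts were fitted in R 4.3.3 with edgeR 4.0.16 (TMM, filterByExpr, quasi-likelihood F test, two-sided, group only), with Benjamini-Hochberg adjustment over 13050 genes and a threshold of 0.05. Standard errors and 95% intervals were derived from the F statistic and are approximate. CPM values use TMM-scaled totals. Levels of different genes were compared on the deposited FPKM only. Total counts of 11610507 to 16884516 limit precision for chains with few reads. The code was tested on simulated data.

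Correlations used log2 CPM with a prior count of 2 and 100000 permutations, or all orders within groups. Alternatives were RLE and upper-quartile scaling, no filter, DESeq2 1.42.0, limma 3.58.1, FPKM with pseudocounts of 0.1 and 1, a replicate block, each library left out, and 4 sets of libraries chosen after seeing the data. The members and lists were chosen with earlier results of these data known. Genes named are the main chains of types I, III, IV, V, VI, VIII, XIV, XV and XVIII, the 5 chains of smallest p in each direction, and the 2 genes of smallest p in each other list. Further chains are named to account for all members, and these were chosen after their values were seen. Positions come from GENCODE on GRCm38, the assembly of mm10, and exons of other genes on the opposite strand covered at most 6.07% of a chain's exon bases.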

Additional observations from a re-analysis of the deposited data

Results flagged for a closer look

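In 11 of the 44 sets of 6 values examined (22 named chains in each group), one library lay far from the other 5 by Dixon's ratio. Chance gives about 1 in 20 for independent sets of normal values. These chains share their libraries and vary together, so the 11 sets are not separate findings. In Parkin KO, library 2 was the far lowest for Col1a1 (99.2 CPM), Col3a1 (72.0 CPM), Col5a1 (65.5 CPM) and Col6a1 (101 CPM). The nearest other Parkin KO libraries were at 192 CPM for Col1a1, 178 CPM for Col3a1, 93.2 CPM for Col5a1 and 147 CPM for Col6a1.

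In noninduced hearts, library 6 was the far highest for Col4a1 (917 CPM), Col4a2 (957 CPM), Col4a3 (19.3 CPM), Col4a4 (30.5 CPM), Col5a2 (72.4 CPM) and Col8a1 (126 CPM). For Col8a1 the nearest other noninduced library was at 31.0 CPM. The same library was the far lowest for Col6a6, at 3.23 CPM against 14.98 CPM in the nearest other noninduced library. Noninduced library 6 also had the lowest cardiomyocyte marker sum (64599 CPM) and the highest activated fibroblast sum (873 CPM) of its group, and their part in these values was not tested.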

How the results depend on the processing

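No chain was called under any alternative. Among the main results 221 comparisons with an alternative counted as unchanged, 9 were weaker, 1 moved and 1 reversed. A class median counted as unchanged when it moved by less than its spread between libraries, whatever its sign. The basement membrane median did so at 0.07 without noninduced library 6, against -0.22 in the main fit. That spread was 0.368 for fibrillar, 0.341 for basement membrane and 0.321 for other chains. The main medians were -0.22, -0.22 and -0.26, so a median of 0 also counted as unchanged, and this label cannot show that the lean held. Counts of chains were unchanged when close to the main count, and correlations when they kept direction and side of the threshold. Among single genes and counts 508 counted as unchanged, 10 moved and 28 reversed. Reversed log2 fold changes were Col4a2 at 0.0030 and 0.0027 on FPKM with pseudocounts of 0.1 and 1. Without noninduced libraries 1 and 3 they were Col4a5 at -0.0044 and Col7a1 at -0.115, and in libraries with at most 7 Y-linked reads Col4a2 at 0.057, Col5a3 at -0.0039 and Col6a3 at 0.10. Without Parkin KO library 2 and noninduced library 6 they were Col1a2 0.11, Col3a1 0.23, Col4a1 0.13, Col4a2 0.17, Col4a3 0.36, Col4a4 0.29, Col5a2 0.26, Col6a1 0.0084, Col6a3 0.10 and Col8a1 0.45, with a basement membrane median of 0.15. The same set gave r of 0.694 for Col1a1 and Col3a1, 0.495 for Col5a1 and Col5a2, 0.565 for Col6a1 and Col6a2, 0.524 for Col6a1 and Col6a3, -0.23 for Col1a1 and Col4a1 and 0.270 for Col3a1 and Col4a1. The cause was not tested.

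With each library left out in turn, log2 fold changes ranged from -0.13 to 0.10 for Col4a2, -0.14 to 0.075 for Col6a3, -0.020 to 0.27 for Col5a3, -0.012 to 0.22 for Col7a1, -0.35 to 0.050 for Col3a1, -0.20 to 0.040 for Col4a1, -0.49 to 0.29 for Col4a3, -0.28 to 0.20 for Col4a4, -0.41 to 0.14 for Col5a2 and -0.63 to 0.34 for Col8a1. Class medians ranged from -0.32 to -0.06 (fibrillar), -0.35 to 0.07 (basement membrane) and -0.36 to -0.03 (other). Chains lower at an unadjusted p under 0.05 ranged from 2 to 8. The r ranged from 0.463 to 0.864 for Col6a1 and Col6a3, 0.497 to 0.863 for Col1a1 and Col4a1 and 0.568 to 0.816 for Col3a1 and Col4a1.

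Same-numbered libraries deviated together weakly (mean correlation 0.045, and 1 of 6 Parkin KO libraries correlated best with its own number). A mean over all genes cannot exclude that numbers pair the libraries. With a replicate block 0 chains were called and 5 were lower at an unadjusted p under 0.05. At that level 1700 of 13050 genes passed in either direction with the block, against 1483 in the main fit. Without the low-count filter 18584 genes and all 44 chains were tested, and 0 were called. The scalings moved no direction among the named chains. Few reads limit the 14 chains below the filter, and the median 95% half-width of 0.50 log2 units limits the rest.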
